A study of Arabidopsis thaliana with 4 samples.

Results

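The aquaporin family of Arabidopsis thaliana comprises 35 genes, 13 plasma membrane intrinsic proteins (PIP), 10 tonoplast intrinsic proteins (TIP), 9 NOD26-like intrinsic proteins (NIP) and 3 small and basic intrinsic proteins (SIP). The genes were taken by family membership from a list of loci, with no threshold on their values, and all 35 were represented among the 34252 genes on the array. Transcript levels were compared between the wild type Col-0 and sahy9/apum23 (sahy9-1 in the sample labels), a line with a T-DNA in an exon of APUM23, which encodes a nucleolar protein needed for ribosomal RNA processing. Whole seedlings of each genotype were grown for 10 days without added salt and then kept for 1 day on medium with 150 mM NaCl, and RNA from 2 independent experiments per genotype was hybridized to 4 single-dye arrays. The mutant is represented by 1 insertion line and, by the study's description, its seedlings are smaller and have shorter roots than the wild type. Salt was common to all 4 arrays and untreated seedlings were not analysed here, so a difference that was present before salt cannot be told apart from one that arose under salt.

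Aquaporins are membrane channels that let water, and in some members small uncharged solutes, pass down a gradient without the use of energy. PIPs act mainly in the plasma membrane, where PIP1 proteins generally need a PIP2 partner to reach the cell surface. TIPs act mainly in the vacuolar membrane, NIPs carry metalloids such as boric acid and arsenite, and SIPs reside in the endoplasmic reticulum. In roots and leaves PIPs and TIPs set much of the rate at which water moves through cells, and their abundance and gating are known to respond to salt and drought. The current names of these genes contain a number for the subgroup and a number for the member. Most genes are called here by the letter name that the TAIR10.1 annotation also lists, with the locus beside it, and the numbered names stand beside the letter names in the plot of levels by array.

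Most aquaporin transcripts of the plasma membrane and the vacuole were lower in sahy9/apum23 than in Col-0 under salt, whereas the changed NIP and SIP transcripts were mostly higher. The vacuolar genes DELTA-TIP3, DELTA-TIP2 and GAMMA-TIP fell 5.50-fold, 2.25-fold and 2.22-fold, and the boric acid channel gene NIP5;1 rose 3.26-fold. Of the 28 members tested, 14 fell and 5 rose at an adjusted P of 0.05 or less (limma, Benjamini-Hochberg adjustment over all 21729 genes tested), and 9 did not pass. 1 of those that rose, AT1G31885, reached the signal filter only in sahy9/apum23, and 4 rose among the 27 members that reached it in both genotypes. Among all genes tested 24% fell and 25.4% rose by the same rule, 49.4% in all, against 67.9% of the tested aquaporins. The median log2 fold change was -0.45 over the tested aquaporins and -0.0041 over all genes tested. The counts depended on the background correction and on single arrays: with normexp 5 members fell and 2 rose, and without sahy9/apum23 replicate 1 those numbers were 10 and 2, without Col-0 replicate 1 they were 13 and 3, and without Col-0 replicate 2 they were 15 and 3. The 2 that rose with normexp were NIP5;1 and NLM2 (NIP1;2). SIP1A and SIP1B did not pass with it (limma adjusted P of 0.122 and 0.140). With the t-test of the study's methods, which estimates the spread of each gene from its own 4 values, 2 fell (PIP2C and GAMMA-TIP) and 0 rose after the same adjustment. Fewer of all genes tested passed as well, 12.7% with normexp and 0.419% with that t-test, against 49.4%.

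All fold changes are sahy9/apum23 against Col-0. Levels are log2 background-subtracted intensities after subtraction of the 75th percentile of each array, so a level of 0 equals that percentile, and each gene was read from its probe of highest mean signal. A gene was tested where 1 genotype or both had an intensity of 100 or more on each of its arrays. Levels of different genes are compared only in broad classes of level, because each probe has its own brightness. The arrays were similar in quality, with 74.6% to 76.4% of the gene spots well above background and 0 saturated, and replicate arrays correlated at 0.995 and 0.996 across genes. APUM23 itself lay at -0.61 and -0.42 in Col-0 and at -3.34 and -3.58 in sahy9/apum23 (log2 fold change -2.95, limma adjusted P = 0.000972). Since there were only 2 arrays of each genotype, the error of each gene was estimated from its own arrays combined with the spread over all genes. The median SD between replicate arrays of the tested aquaporins was 0.074 in Col-0 and 0.072 in sahy9/apum23.

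**Figure D1:**
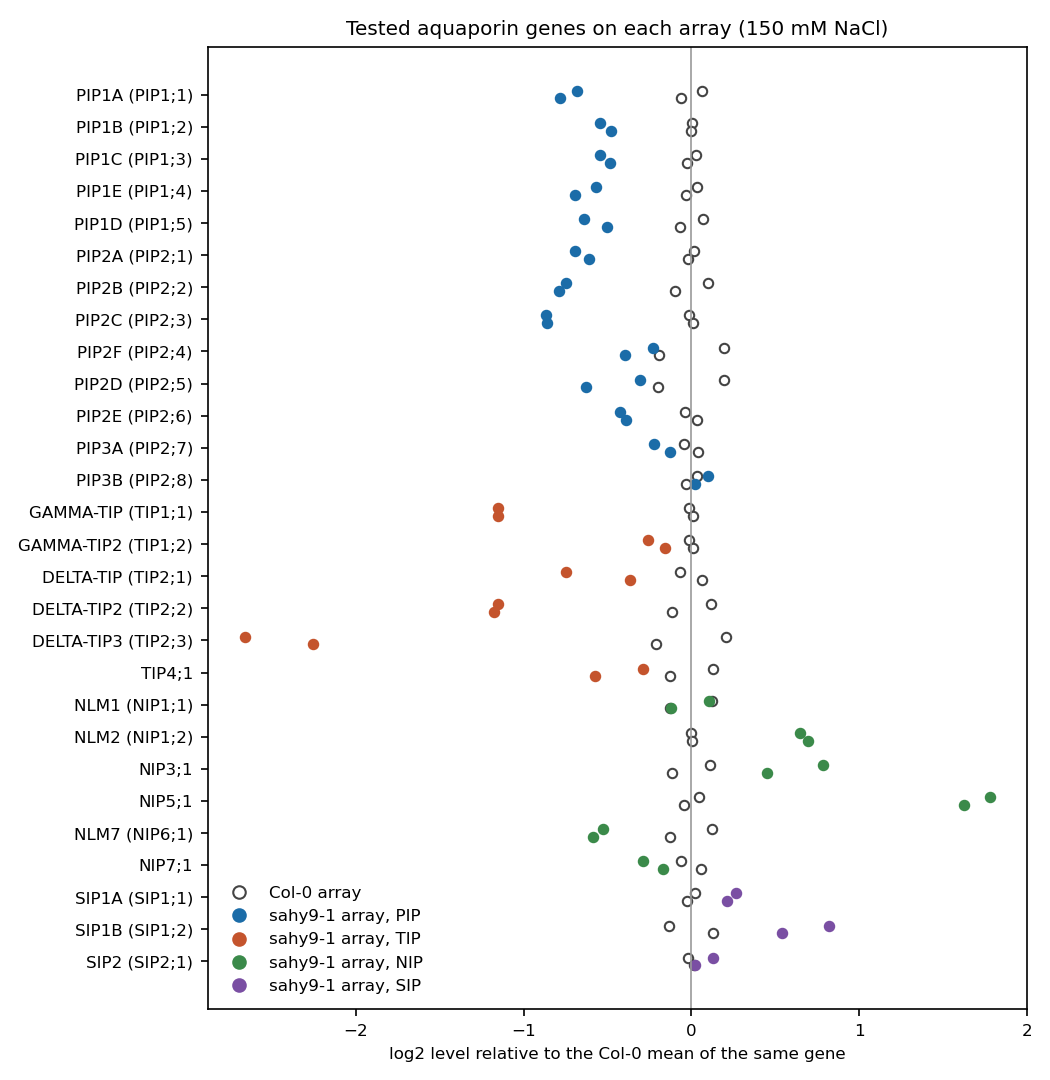
Level of each of the 28 tested aquaporin genes on the 4 arrays, as the log2 difference from the Col-0 mean of that gene (open circles, Col-0 arrays. Filled circles, sahy9/apum23 arrays, colored by subfamily). The points of sahy9/apum23 lie left of the Col-0 points for 20 genes and right of them for 6. Over all genes tested these arrangements held for 40.3% and 40%. The 6 include NIP3;1, which was tested only because of its mutant arrays. On average DELTA-TIP3 lies farthest left at -2.46 and NIP5;1 farthest right at 1.71.

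All 5 PIP1 genes fell, by a similar amount, where 24% of all genes tested fell by the same rule. However, with the normexp background correction none of the 5 passed (log2 fold changes -0.69 to -0.42, limma adjusted P 0.0566 to 0.0955). PIP1A (AT3G61430) lay at 4.0 and 3.88 in Col-0 and at 3.26 and 3.16 in sahy9/apum23, a difference of -0.73 ± 0.080 (log2, standard error) at an adjusted P of 0.00447 in limma. PIP1E (AT4G00430), which is known to rise under drought, went from 3.73 and 3.67 to 3.14 and 3.01, a difference of -0.63 ± 0.077 (log2, standard error) at an adjusted P of 0.00534 in limma. The 2 arrays of a genotype lay close together for both genes and the genotypes did not overlap. For PIP1D (AT4G23400) the log2 difference came to -0.57 ± 0.088 (standard error) at an adjusted P of 0.00861 in limma, and of 0.0548 without sahy9/apum23 replicate 1. PIP1B (AT2G45960), whose protein has been linked to carbon dioxide entry into leaf cells, and PIP1C (AT1G01620) each fell by 0.51 on the log2 scale. For PIP1B the adjusted P was 0.00556 and for PIP1C it was 0.00587 (limma). The 5 changes thus spanned -0.73 to -0.51, which is 1.43-fold to 1.66-fold.

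The PIP2 genes were more varied, as 4 of the 8 fell and 4 did not pass the test. The share of PIP2 genes that passed, 50%, was near the 49.4% of all genes tested, of which 24% fell. PIP2A (PIP2;1, AT3G53420), a channel of roots and guard cells that the abscisic acid-activated kinase OST1 phosphorylates, had the brightest probe among the PIPs. Its levels were 5.26 and 5.22 in Col-0 and 4.54 and 4.63 in sahy9/apum23, a difference of -0.65 ± 0.068 (log2, standard error) at an adjusted P of 0.00418 in limma. The drop was several times the gap between replicate arrays. PIP2C (PIP2;3, AT2G37180), first described as the desiccation-responsive gene RD28, showed the largest change of the PIPs. It lay at -0.046 and -0.024 in Col-0 and at -0.90 and -0.90 in sahy9/apum23, a difference of -0.86 ± 0.061 (log2, standard error) at an adjusted P of 0.00243 in limma. The replicate arrays of PIP2C agreed closely in both genotypes. PIP2B (PIP2;2, AT2G37170), which takes part in water uptake by roots and is the immediate neighbor of PIP2C in the annotation, went from 2.30 and 2.1 to 1.46 and 1.42, a difference of -0.77 ± 0.090 (log2, standard error) at an adjusted P of 0.00501 in limma. The 2 genes are close paralogs read by 1 probe each, and cross-hybridization between them was not tested. PIP2E (AT2G39010), a gene of leaves, went from 5.05 and 5.12 to 4.66 and 4.70, a difference of -0.41 ± 0.066 (log2, standard error) at an adjusted P of 0.0098 in limma. The call of PIP2E was lost without either mutant array, at adjusted P of 0.0735 without replicate 1 and 0.0653 without replicate 2.

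The other 4 PIP2 genes did not pass the test. PIP2F (AT5G60660), a root-expressed gene, had levels of -2.01 and -2.40 in Col-0 and -2.43 and -2.60 in sahy9/apum23 (log2 fold change -0.31, limma adjusted P = 0.153). PIP2D (AT3G54820), known to rise under drought, had levels of -3.15 and -3.55 against -3.66 and -3.98 (log2 fold change -0.47, limma adjusted P = 0.0909). In both genes the Col-0 arrays differed from each other by an amount similar to the difference between the genotypes. Without Col-0 replicate 2 the adjusted P was 0.0312 for PIP2F and 0.0465 for PIP2D (limma). PIP3A (PIP2;7, AT4G35100), annotated as a salt-stress-inducible intrinsic protein, differed by -0.17 (adjusted P = 0.115), and PIP3B (AT2G16850) by 0.059 (adjusted P = 0.512, limma). PIP3B was the only PIP whose genotypes overlapped, since for the other 12 both mutant arrays lay below both Col-0 arrays. That arrangement held for 40.3% of all genes tested. No PIP changed 2-fold at its brightest probe, and over the 13 PIPs the median log2 fold change was -0.51.

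The TIP genes held the largest decreases of the family. DELTA-TIP3 (TIP2;3, AT5G47450), a root gene whose product transports ammonia when made in yeast, lay at -1.38 and -1.80 in Col-0 and at -4.25 and -3.84 in sahy9/apum23. The log2 difference came to -2.46 ± 0.20 (standard error) at an adjusted P of 0.00305 in limma, a 5.50-fold decrease. The SD between replicate arrays was 0.29 in each genotype, far less than the drop. Of all genes tested 1.01% changed by as much or more.

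DELTA-TIP2 (TIP2;2, AT4G17340), its paralog of the root stele, went from 2.63 and 2.40 to 1.36 and 1.33, a difference of -1.17 ± 0.098 (log2, standard error) at an adjusted P of 0.0031 in limma. GAMMA-TIP (TIP1;1, AT2G36830), a water, urea and hydrogen peroxide channel that is abundant in the vacuoles of vegetative tissue, went from 5.17 and 5.19 to 4.03 on each mutant array. Its log2 difference came to -1.15 ± 0.061 (standard error) at an adjusted P of 0.00149 in limma, a 2.22-fold decrease. The replicates of GAMMA-TIP nearly coincided, so the gap between the genotypes stood far outside the spread. Changes as large as those of DELTA-TIP2 and GAMMA-TIP were found in 6.29% and 6.42% of all genes tested. Together with DELTA-TIP3 these made 3 aquaporins that fell at least 2-fold, where 4.28% of all genes tested did so. DELTA-TIP3 was the only member that fell at least 3-fold, against 1.59% of all genes.

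The remaining tested TIPs differed less between the genotypes. DELTA-TIP (TIP2;1, AT3G16240), the paralog expressed mainly in shoots, had the brightest TIP probe and went from 5.45 and 5.58 to 4.77 and 5.15, a difference of -0.56 ± 0.15 (log2, standard error) at an adjusted P of 0.0351 in limma. The mutant arrays of DELTA-TIP were the less alike (SD 0.27, against 0.094 in Col-0), and its adjusted P rose to 0.0990 without sahy9/apum23 replicate 1, to 0.0804 without Col-0 replicate 1 and to 0.117 without Col-0 replicate 2 (limma). GAMMA-TIP2 (AT3G26520), the nearest paralog of GAMMA-TIP, lay at 4.67 and 4.70 in Col-0 and at 4.43 and 4.53 in sahy9/apum23 (log2 fold change -0.21, limma adjusted P = 0.0659). TIP4;1 (AT2G25810), a root gene, lay at -0.75 and -1.01 against -1.17 and -1.46 (log2 fold change -0.43, limma adjusted P = 0.0604). In all 6 tested TIPs both mutant arrays lay below both Col-0 arrays, as in 40.3% of all genes tested, and 4 of the 6 fell at the adjusted P, against 24% of all genes. The median log2 fold change over the 6 was -0.85. That median depended on the filter, which left out dim TIPs. It was -0.49 with a filter on well above background and -0.38 with no signal filter. The medians over all genes were then -0.0058 and -0.096.

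The NIP genes moved in different directions. NIP5;1 (AT4G10380), the boric acid channel that takes boron up into roots, lay at -1.48 and -1.58 in Col-0 and at 0.25 and 0.099 in sahy9/apum23. The log2 difference came to 1.71 ± 0.085 (standard error) at an adjusted P of 0.00134 in limma, a 3.26-fold increase. The mutant arrays lay close together and far above the Col-0 arrays. It was the only member that rose at least 2-fold, against 4.09% of all genes tested, and the only one that rose at least 3-fold, against 1.66%. A change as large was found in 2.84% of all genes tested.

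NLM7 (NIP6;1, AT1G80760), which directs boric acid to young leaves in the shoot, fell while NIP5;1 rose. It had the brightest NIP probe and went from 0.56 and 0.31 to -0.090 and -0.15, a difference of -0.56 ± 0.10 (log2, standard error) at an adjusted P of 0.0139 in limma. That adjusted P was 0.0715 with normexp and 0.0583 with no signal filter (limma). The call of NLM7 was lost without either mutant array, at adjusted P of 0.0617 without replicate 1 and 0.0789 without replicate 2. NIP7;1 (AT3G06100), known as a boron channel of anthers, lay at -4.07 and -3.95 in Col-0 and at -4.29 and -4.18 in sahy9/apum23 (log2 fold change -0.23, limma adjusted P = 0.0792). The 3 boron channel genes thus held 1 increase, 1 decrease and 1 that did not pass, where 25.4% of all genes tested rose and 24% fell.

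Among the NIPs that carry arsenite and other small solutes, NLM2 (NIP1;2, AT4G18910) rose from -1.07 and -1.06 to -0.42 and -0.37, a difference of 0.67 ± 0.063 (log2, standard error) at an adjusted P of 0.00362 in limma. The replicate arrays of NLM2 almost coincided in each genotype. NIP3;1 (AT1G31885) went from -5.09 and -5.32 to -4.42 and -4.76, a difference of 0.62 ± 0.15 (log2, standard error) at an adjusted P of 0.0262 in limma. This is a dim gene that was tested only because of its mutant arrays, with intensities of 83.1 and 67.8 in Col-0, below the filter of 100, and 155 and 109 in sahy9/apum23. A gene that passes in this way had to be higher in the mutant, so its difference is given as a description. With another background correction (normexp) its log2 fold change was -0.43 (adjusted P = 0.587). Its adjusted P was 0.0886 with no signal filter, 0.0874 without Col-0 replicate 2 and 0.0940 without sahy9/apum23 replicate 1 (limma). NLM1 (AT4G19030) lay at -2.1 and -2.35 in Col-0 and at -2.12 and -2.34 in sahy9/apum23, and the genotypes overlapped (log2 fold change -0.0079, limma adjusted P = 0.964). Over the 6 tested NIPs the median log2 fold change was 0.31, made up of 3 that rose, 1 that fell and 2 that did not pass. By the same rule 25.4% of all genes tested rose and 24% fell. The sign of that median was not stable, since it was -0.0079 without AT1G31885 (a summary added after seeing the data) and -0.35 with normexp. With normexp the median over all genes tested was -0.10.

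Of the SIP genes, SIP1B (AT5G18290) rose from -0.97 and -0.70 to -0.012 and -0.29, a difference of 0.68 ± 0.14 (log2, standard error) at an adjusted P of 0.0180 in limma. SIP1A (AT3G04090) rose from 1.74 and 1.69 to 1.99 and 1.93, a difference of 0.24 ± 0.065 (log2, standard error) at an adjusted P of 0.0378 in limma. With normexp neither SIP1B (adjusted P = 0.140) nor SIP1A (adjusted P = 0.122, limma) passed. SIP2 (AT3G56950) lay at 0.65 and 0.68 against 0.80 and 0.68 (log2 fold change 0.075, limma adjusted P = 0.426). All 3 SIPs had both mutant arrays above both Col-0 arrays, if only barely for SIP2. With the 3 NIPs that rose, 6 aquaporins showed this arrangement, which held for 40% of all genes tested. NIP3;1, among these 6, was tested only because of its mutant arrays, so its place among them is a description. The SIP calls were fragile: that of SIP1A was lost without any 1 of the 4 arrays (adjusted P 0.0693 to 0.213), and that of SIP1B without Col-0 replicate 1 (0.0621) or sahy9/apum23 replicate 1 (0.0759, limma).

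Many aquaporins were measured by several probes on different parts of the transcript, which gives repeated readings of the same RNA. The 35 genes had 80 probes in all, and 14 genes had more than 1 probe. These 14 genes held 59 probes, of which 58 were well above background on all 4 arrays. In each of the 14 genes all such probes differed in the same direction. The second probe of DELTA-TIP3 lay at -2.97 and -3.57 in Col-0 and at -5.92 and -5.64 in sahy9/apum23, a difference of -2.51 beside -2.46 for the first. The 4 probes of DELTA-TIP2 gave -1.22 to -1.14, the 4 of GAMMA-TIP gave -1.43 to -1.11 and the 5 of DELTA-TIP gave -0.57 to -0.53. The 6 probes of PIP2A gave -0.82 to -0.62. PIP3A and GAMMA-TIP2, which did not pass the test, were lower with each of their 5 probes, by -0.31 to -0.13 and -0.26 to -0.12.

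The widest range between probes was found in PIP1E. The 4 probes listed under its main transcript gave -0.87 to -0.61, and the probe listed under another transcript of the gene lay at 0.60 and 0.68 in Col-0 and at -0.51 and -0.59 in sahy9/apum23, a difference of -1.19. Likewise the probe listed under a second transcript of PIP1B lay at 2.52 and 2.40 against 1.69 and 1.67, a difference of -0.79, where the 5 other probes gave -0.74 to -0.51. Whether the transcripts of a gene changed by different amounts was not tested. For PIP1A to PIP1E, PIP2A and PIP2E, the median over the probes well above background lay between -0.79 and -0.47.

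**Figure D2:**
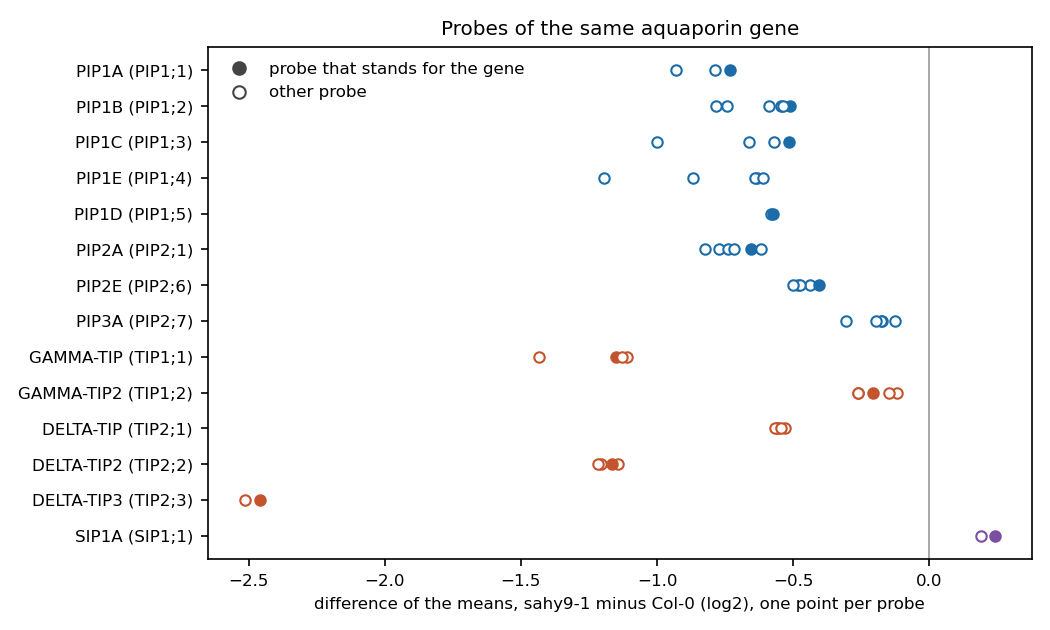
Difference between the genotype means (log2, sahy9/apum23 minus Col-0) for each probe well above background on all 4 arrays, in the 14 aquaporin genes with more than 1 such probe (filled, the probe that stands for the gene. Open, the other probes). The probes of each gene lie on the same side of 0, with both DELTA-TIP3 probes near -2.5 and the widest range in PIP1E, from -1.19 to -0.61.

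Many PIP and TIP probes are among the brightest on the array, so the change was set beside that of other genes of like level. Of the 550 genes with a mean level of 4 or more, 56% were lower in sahy9/apum23, with a median log2 fold change of -0.059. The 8 aquaporins in that class, 5 PIPs and 3 TIPs, were all lower, with a median of -0.51. Of the 2181 genes with a level of 2 to 4, 49.7% were lower, and so were all 3 aquaporins of that class (median -0.63). At lower levels the aquaporins were mixed. Those lower were 3 of 5 at a level of 0 to 2 (median -0.56) and 2 of 6 at -2 to 0 (median 0.37). They were 4 of 4 at -4 to -2 (median -0.39) and 1 of 2 below -4 (median 0.20). In these classes 46.9% to 51.4% of all genes were lower.

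**Figure D3:**
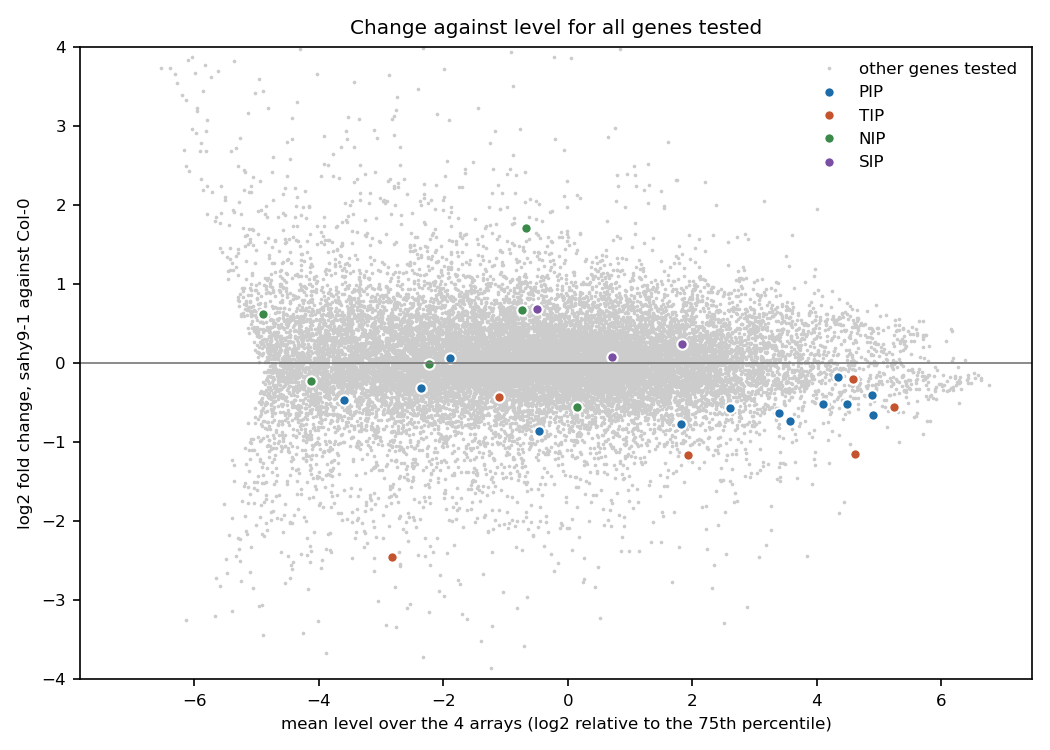
Log2 fold change (sahy9/apum23 against Col-0) against the mean level over the 4 arrays for the genes tested (gray) and the 28 tested aquaporins (colored by subfamily), with 62 genes outside the plotted range of -4 to 4. Above a level of 4 the gray points center near 0, with a median of -0.059, and the 8 aquaporins lie below 0.

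Organ markers were read beside these values, because several aquaporins are transcribed mainly in 1 organ and the seedlings were taken whole. In bulk samples fewer cells of a type and less RNA per cell cannot be told apart. Leaf markers (10 of 10) and root markers (23 of 24, all but IRT1) gave signals well above background on each array. The summed intensity of the 24 root markers, in units of the 75th percentile, was 62.3 and 63.9 in Col-0 and 54.7 and 53.8 in sahy9/apum23. PYK10 made up most of that sum (48.7 and 51.1 against 39.8 and 40.2). The other 23 root markers summed to 13.6 and 12.8 in Col-0 and 14.8 and 13.7 in sahy9/apum23. That sum depended much on its brightest marker, SULTR1;2, with log2 levels of 2.70 and 2.76 in Col-0 and 2.91 and 2.78 in sahy9/apum23. It therefore does not show how most of the 23 changed. Of the 22 root markers tested 6 fell and 3 rose, or 40.9% in all against 49.4% of all genes, with a median log2 fold change of -0.15 and a largest drop of -1.58 in CASP5. The summed intensity of the 10 leaf markers was 517 and 541 in Col-0 and 439 and 460 in sahy9/apum23, and each array of the mutant was below each of Col-0. Of the 10 leaf markers 7 fell, against 24% of all genes, and 0 rose, against 25.4%, with a median log2 fold change of -0.25. The part of organ proportions in the aquaporin values was not tested.

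The remaining 7 aquaporins did not reach the signal filter, and 6 of them belong to classes known from pollen or seeds. ALPHA-TIP (TIP3;1, AT1G73190), a vacuolar channel of seeds, was well above background on all arrays but dim, with intensities of 152 and 94.3 in Col-0 and 138 and 84.1 in sahy9/apum23. The genotypes overlapped. BETA-TIP (AT1G17810), its seed paralog, stood at 4.70 to 8.18 and did not rise well above background anywhere. Of the 10 seed markers 4 were well above background on all arrays, and CRB, CRU3 and SESA2 on none. EM6, a late embryogenesis abundant gene, made up most of their summed intensity, with 1.51 and 0.961 in Col-0 and 0.814 and 1.09 in sahy9/apum23 in units of the 75th percentile. The other 9 seed markers, storage protein and oil body genes, were dim and summed to 0.187 and 0.088 in Col-0 and 0.091 and 0.096 in sahy9/apum23. Both EM6 and that sum were highest in Col-0 replicate 1, the array on which ALPHA-TIP was also highest, and their part in its level was not tested.

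The pollen genes were at the limit of detection. GAMMA-TIP3 (AT4G01470) stood at 3.47 to 4.56 and TIP5;1 (AT3G47440) at 26.3 to 30.6, the latter well above background on 1 Col-0 array and both mutant arrays. Of the adjacent genes AT5G37810 and AT5G37820 (NIP4 subgroup), the first stood at 3.56 to 18.6 and was well above background on 0 arrays, and the second stood at 12.6 to 23.6 and was well above background on 1 mutant array. AT2G34390 (NIP2;1), a lactic acid channel known from roots short of oxygen, had intensities of 5.83 and 5.31 in Col-0 and 17.7 and 17.2 in sahy9/apum23. These lay near or below the lowest signal that counted as well above background on each array (16.7 to 21.2), and none was well above background, so no fold is given. With no signal filter the adjusted P of this gene was 0.0185 (limma). In all, 29 aquaporins were well above background on all 4 arrays, 2 on some and 4 on none.

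**Figure D4:**
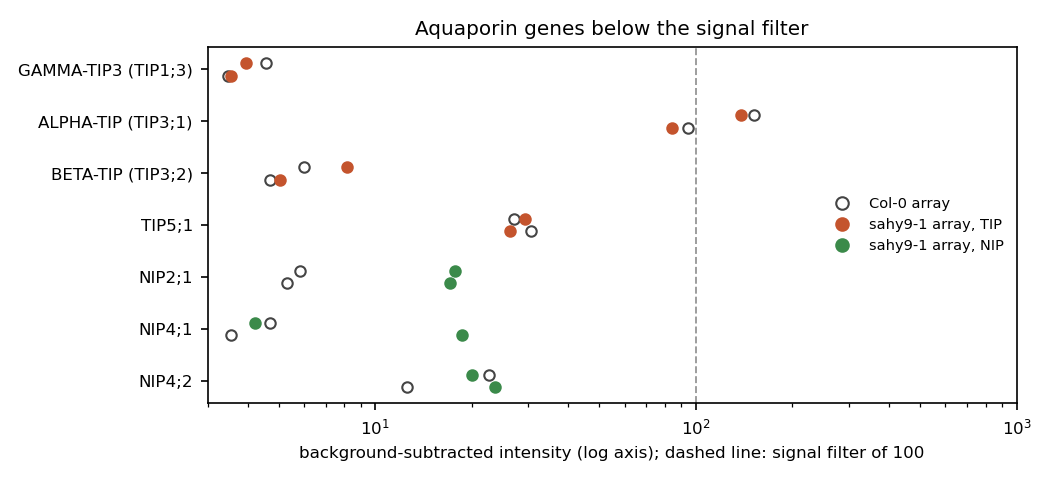
Background-subtracted intensity (log axis) of the 7 aquaporin genes below the signal filter on each array (open, Col-0. Filled, sahy9/apum23, colored by subfamily), with the filter of 100 as a dashed line. ALPHA-TIP lies around the line with overlapping genotypes, and the other genes lie below 31.

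Genes known to move, modify or degrade aquaporins were also examined, 14 in all, of which 13 were on the array and tested. TSPO (AT2G47770), a membrane protein induced by abscisic acid that binds PIP3A and directs it to degradation, lay at 4.60 and 4.01 in Col-0 and at 2.16 and 1.54 in sahy9/apum23. Its log2 difference came to -2.45 ± 0.29 (standard error) at an adjusted P of 0.00499 in limma, a 5.48-fold decrease. UBC32 (AT3G17000), a stress-induced ubiquitin-conjugating enzyme of the endoplasmic reticulum, went from 2.77 and 2.31 to 1.42 and 1.21, a log2 fold change of -1.23 (limma adjusted P = 0.00765). The replicates of TSPO were far apart (SD 0.41 and 0.44), but in both genes the genotypes did not overlap.

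OST1 (AT4G33950), the kinase named above, fell by 0.51 on the log2 scale (limma adjusted P = 0.0125). SYP121 (AT3G11820), a syntaxin that delivers PIPs to the plasma membrane, rose from 0.98 and 1.15 to 1.80 and 1.75, a log2 fold change of 0.71 (limma adjusted P = 0.00514). The receptor-like kinases QSK1 and BAK1 rose by 0.45 and 0.37 on the log2 scale (limma adjusted P of 0.0274 and 0.0251). The other 7 did not pass, among them the ubiquitin ligases RMA1, RMA2 and RMA3 with log2 fold changes of -0.095 to 0.26, and SYP61 and SYP71 at 0.0017 and -0.0068. The list thus held 3 genes that fell and 3 that rose of 13, or 46.2%, no more than the 49.4% of all genes tested, and a median log2 fold change of 0.0017.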

How the data were processed

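Background-subtracted intensity (processed signal) and spot flags were read from the scanner output that the authors deposited, made with Agilent Feature Extraction 10.7.1.1, 1 file for each of 4 arrays. The authors also deposited a log2 table of the same arrays, used as an alternative. Log2 intensities were scaled to the 75th percentile of each array. Control spots and outlier spots were left out. Genes that reached an intensity of 100 on each array of 1 or both genotypes were tested (21729 genes, each by its brightest probe) with limma 3.58.1 in R 4.3.3, 2 arrays against 2. Probes were assigned to loci through transcript accessions in the TAIR10.1 annotation (26305 of 35127 transcripts matched), and otherwise kept the name in the files. The code was tested on simulated data. Figures were drawn with matplotlib 3.10.9.

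All 35 members are accounted for. Full values were given for members that passed with at least a 2-fold change, that were well above background in 1 genotype only, that were the brightest of a subfamily, or whose probes disagreed. Values of other members were added after seeing the data. The members and lists were chosen with earlier results of these data known. Alternatives covered background correction, scaling, filters, floor, outlier spots, probe averaging, variance trend, replicate block, the methods' t-test, fold threshold and leaving out each array. Normexp used median signals with an offset of 50. Microarrays give no read depth, and the number of arrays limits the precision. Probe and protein sequences were not used here.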

Additional observations from a re-analysis of the deposited data

How the results depend on the processing

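Quantile or median scaling, a floor on dim signals, keeping outlier spots, a variance trend and the deposited log2 table left every count within 1.5 times its value and every subfamily median within the replicate spread. With normexp, 2755 genes passed the adjusted P (10735 in the report), 324 also changed 3-fold (705), 2 aquaporins rose, 5 fell and 1 passed 3-fold, and the TIP and NIP medians were -0.78 and -0.35. PIP3B (-0.14) and NIP3;1 (-0.43) also turned. The median over all genes tested was -0.10 with normexp, against -0.0041 in the report. The cause of these shifts was not tested. Without a signal filter 6571 genes and 3 rising aquaporins passed, and the TIP and NIP medians, now over more genes, were -0.38 and 0.62. The median over all genes was then -0.096. With a filter on well above background the TIP median was -0.49, and averaging probes gave a PIP median of -0.62. With the methods' t-test 91 genes passed, 15 of them 3-fold, with 0 aquaporins rising, 2 falling and 0 past 3-fold. At an unadjusted P of 0.05 it passed 9544 genes and 16 aquaporins. At 2-fold, 4 aquaporins passed. Over the 27 members that reached the signal filter in both genotypes, a summary chosen after seeing the data, 4 rose and 14 fell, and the NIP median was -0.0079 since AT1G31885 was left out.

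Leaving out each array gave 4753 to 10040 genes, 596 to 851 past 3-fold, 2 to 4 aquaporins rising and 10 to 15 falling, with 2 past 3-fold throughout. The medians ranged from -0.64 to -0.50 for PIPs, -0.95 to -0.84 for TIPs and 0.17 to 0.39 for NIPs. The fewest genes passed without sahy9/apum23 replicate 2 (4753) and replicate 1 (5101). NLM1 ranged from -0.13 to 0.12, above 0 without Col-0 replicate 1 (0.12) and without sahy9/apum23 replicate 2 (0.11). With the replicate block, for numbers that the labels do not tie to a shared origin, 11842 genes passed, 5 aquaporins rose and 18 fell, as PIP2F (adjusted P 0.0352), PIP2D (0.00641), TIP4;1 (0.00726) and NIP7;1 (0.0434) gained calls in limma. Deviations of samples with the same number correlated at 0.438. Over 28 members and 16 alternatives, 384 results kept their side of the threshold, 52 lost it, 8 gained it and 4 reversed. PIP2C and GAMMA-TIP kept their calls under all 16. With 2 arrays per genotype, signals near background limit what can be said of the dim members.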
